A study of Mus musculus with 6 samples.

Results

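Genes of the ephrin, semaphorin, slit and netrin guidance systems were examined in H-RasG12V-expressing mouse embryo fibroblasts (MEFs) with and without p38α. The list held 46 genes chosen by family, and 31 of them were measured, each by 1 probe, out of 10634 genes named on the array. The other 15 (Epha3, Epha7, Ephb1, Ephb2, Ephb3, Efna3, Efnb3, Sema4b, Sema4c, Nrp2, Plxna2, Plxnd1, Slit2, Slit3 and Robo1) matched no probe through the gene table and were not analysed here. p38α-/- cells (KO, n = 3 cultures) were compared with wild type cells (WT, n = 3 cultures), both on a mixed 129/svev × C57Bl/6 strain background. Cultures of both genotypes were immortalised spontaneously by the 3T3 protocol, carried stably transduced H-RasG12V and were scraped after 72 h of growth. No culture without the oncogene was analysed here, so every difference is one between transformed cells. Each culture was hybridised to 1 CodeLink array, so precision is limited by having 3 arrays a genotype. The labels call the cultures biological replicates but do not say whether they were derived separately, so p-values measure the spread between these cultures. Only 1 channel was held in each file, although the labels describe Cy5 for a culture and Cy3 for a pool of its own genotype. It was taken as a culture's channel, because the name inside each file is a culture's. If the values came from the pool instead, each genotype would be represented by 1 RNA measured 3 times, with technical spread alone behind the p-values. KO replicates 2 and 3 carried each other's names inside their files. They are numbered here by sample title, so a result given for either may belong to the other. The groups are unchanged by this.

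Ephrins are cell-surface ligands, and Eph receptors are the receptor tyrosine kinases that they engage where cells touch. Semaphorins are secreted or membrane-bound cues read by plexins, with neuropilins as co-receptors for most of the secreted class, and netrins are read by Dcc and Unc5 receptors. The systems are named for growing axons, but in fibroblasts and tumour cells they also control contact repulsion, spreading and migration. They do so largely through the actin cytoskeleton.

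Mapk14, the gene for p38α, had background-subtracted intensities of 17.6, 18.6 and 8.35 units in KO replicates 1, 2 and 3, against 60.8, 70.6 and 68.8 units in WT. The groups did not overlap, and only 1 KO array was above background, meaning not marked low by the scanner software. Its normalized log2 difference, KO minus WT, was -0.94 (SE 0.07, limma adjusted p = 7.8e-05), or -2.24 without the constant of 50 that background correction added to each signal here (offset 0). The sources do not place the probe inside or outside the deletion, so the lower signal is not by itself a check of the genotype. Between 43.8% (KO replicate 3) and 51.7% (KO replicate 1) of 19801 gene probes were above background, and 11 or 12 of the 31 guidance genes were on each array. The median background-subtracted intensity of the gene probes was 18.8 to 21.7 units on KO arrays and 15.9 to 17.5 units on WT arrays. Intensities in units are not normalized between arrays, and the log2 signals are. Of 10 fibroblast markers 5 were measured and 4 were above background on every array, among them Col1a2, a collagen chain, and Vim, vimentin; the surface antigen Thy1 was near background on all 6. The 5 measured summed to 15742 to 22410 units in KO and 9746 to 12010 units in WT. Most of this was Vim, at 14889 to 21219 units in KO and 8584 to 10798 units in WT. Vim was called higher in KO, and Pdgfrb and Dcn were called lower. The normalized values of Col1a2 were also lower in KO without overlap, but it was not called. The 5 endothelial, 2 macrophage and 2 Schwann and glial markers measured were near background on every array; the glial pair summed to 19.0 to 28.5 units in KO and 7.26 to 14.8 units in WT.

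Most of the guidance genes did not differ detectably between genotypes, and those that did went both ways. In KO cells the ephrin ligand gene Efna1 and the neuropilin gene Nrp1 fell by over 1 log2 unit, and the receptor gene Epha2 and the semaphorin gene Sema3e fell by less. The semaphorin gene Sema3c and the receptor gene Ephb6 rose. In all, 2 of 31 genes were higher (6.45%) and 4 were lower (12.9%) in KO at a limma adjusted p under 0.05, where 10.4% of all 19604 tested probes were higher and 12.1% were lower. The share called in either direction, 19.4%, lay near the 22.6% of all probes. The median log2 difference was -0.01 for the 31 genes and -0.01 for all probes. The 2 genotypes were fully separated, with no overlap of normalized values, for 7 of the 31 genes (22.6%) and for 36.0% of all probes.

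**Figure D1:**
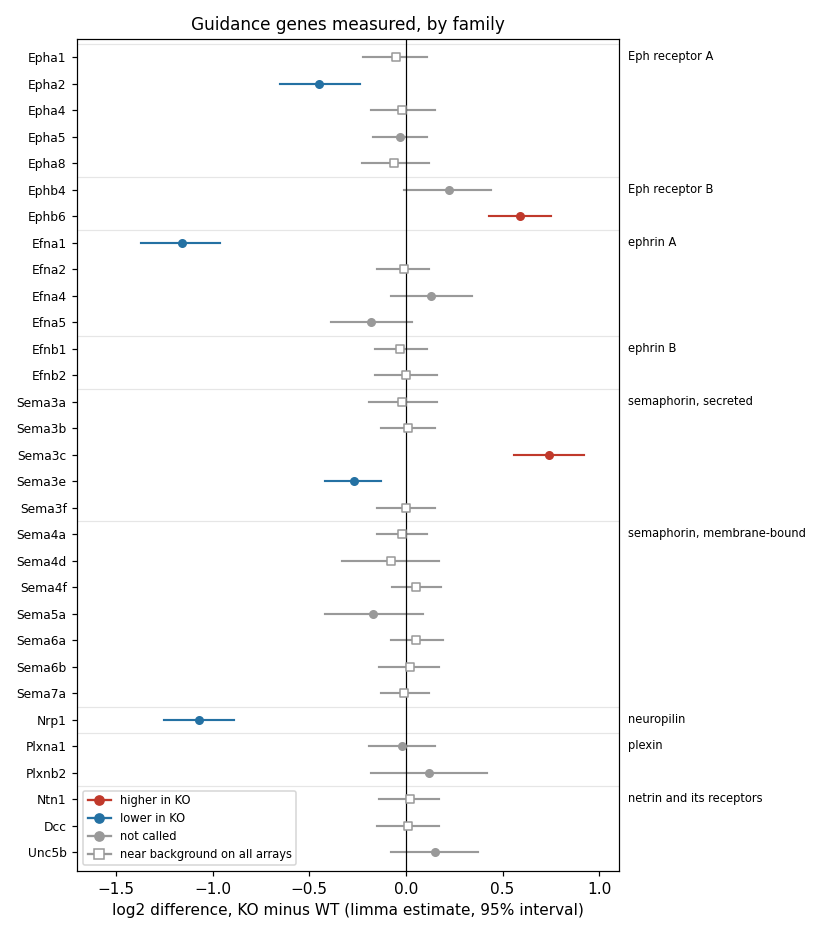
Log2 difference, KO minus WT, of the 31 measured guidance genes (horizontal axis) by family (rows), with limma's 95% interval; filled circles were above background on at least 1 array and open squares on none. The 2 genes higher in KO and the 4 lower lie in the Eph, ephrin A, secreted semaphorin and neuropilin families, and the 17 genes near background lie between -0.08 and 0.05.

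Many of the genes were dim. Above background on all 6 arrays were 9 of the 31 genes (Efna1, Efna5, Epha2, Ephb6, Nrp1, Plxna1, Plxnb2, Sema3c and Unc5b), and 5 of these 9 were called. Among all probes above background on 6 of 6 arrays the share called was 41.0%. A further 5 genes (Epha5, Ephb4, Efna4, Sema3e and Sema5a) were above background on some arrays, and 17 were near background on all. None of those 17 was called, and each has only a bound on its level. Dimmer probes were called less often in general: the 8018 of 19604 probes above background on all 6 arrays held 3287 of all 4421 calls. The share called among all probes near background on every array was not computed.

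Among the ligands of the Eph system, Efna1 encodes ephrin-A1, a lipid-anchored ligand that binds EphA2 and other A-class receptors. Its background-subtracted intensities were 42.0, 44.5 and 56.0 units in KO replicates 1, 2 and 3, and 133, 165 and 144 units in WT replicates 1, 2 and 3. Every KO culture was well below every WT culture. Normalized log2 signals were 6.61 ± 0.16 in KO and 7.77 ± 0.08 in WT (SD, n = 3 each). The difference was -1.16 (SE 0.09, 95% interval -1.37 to -0.96, limma adjusted p = 6.0e-05), which is 2.24-fold lower in KO. The added offset of 50 pulls dim signals together, and with offset 0 the log2 difference was -1.84. In these bulk cultures, fewer cells expressing a gene and less of its RNA per cell cannot be told apart.

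The other ephrins did not pass. Efna5, another lipid-anchored A-class ligand, had 69.0, 49.8 and 54.7 units in KO and 61.2, 72.9 and 45.9 units in WT, so that the groups overlapped (log2 difference -0.18, 95% interval -0.39 to 0.03). Efna4 had 16.3, 19.2 and 27.7 units in KO, above background on 2 arrays, against 7.21, 13.5 and 15.8 units in WT, where it was near background on all 3. Its interval ran from -0.08 to 0.34. Efna2 and the transmembrane ligand genes Efnb1 and Efnb2 were near background on every array.

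Among the receptors, Epha2, which binds ephrin-A1, had 189, 206 and 209 units in KO and 230, 250 and 237 units in WT. The groups did not overlap, but the deposited intensities lay closer than the normalized values did. After normalization the log2 signals were 7.88 ± 0.16 in KO and 8.32 ± 0.05 in WT, a difference of -0.45 (SE 0.09, limma adjusted p = 0.0078). The difference was -0.30 under median scaling (adjusted p = 0.013) and -0.55 with offset 0, where the call was lost (adjusted p = 0.069). Epha2 and its ligand gene Efna1 were thus both lower in KO.

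Ephb6, a B-class receptor whose kinase domain is catalytically inactive, went the other way. It had 134, 111 and 119 units in KO and 50.5, 48.2 and 48.2 units in WT, with no overlap. Normalized log2 signals were 7.36 ± 0.11 in KO and 6.77 ± 0.04 in WT, which is 1.50-fold higher in KO (log2 difference 0.59, SE 0.07, limma adjusted p = 5.9e-04). With offset 0 the difference was 0.95. Ephb4, the receptor for ephrin-B2, had 13.2, 12.3 and 26.9 units in KO and 4.89, 4.50 and 9.28 units in WT; only KO replicate 3 was above background. The values did not overlap, but the difference of 0.22 did not pass (95% interval -0.01 to 0.44, limma adjusted p = 0.18).

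Of the remaining A-class receptors, Epha5 was above background on 5 arrays and overlapped between groups, with 27.8, 33.3 and 23.5 units in KO and 25.8, 23.8 and 25.9 units in WT. The 95% interval of its log2 difference was -0.17 to 0.11. Epha1, Epha4 and Epha8 were near background throughout.

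**Figure D2:**
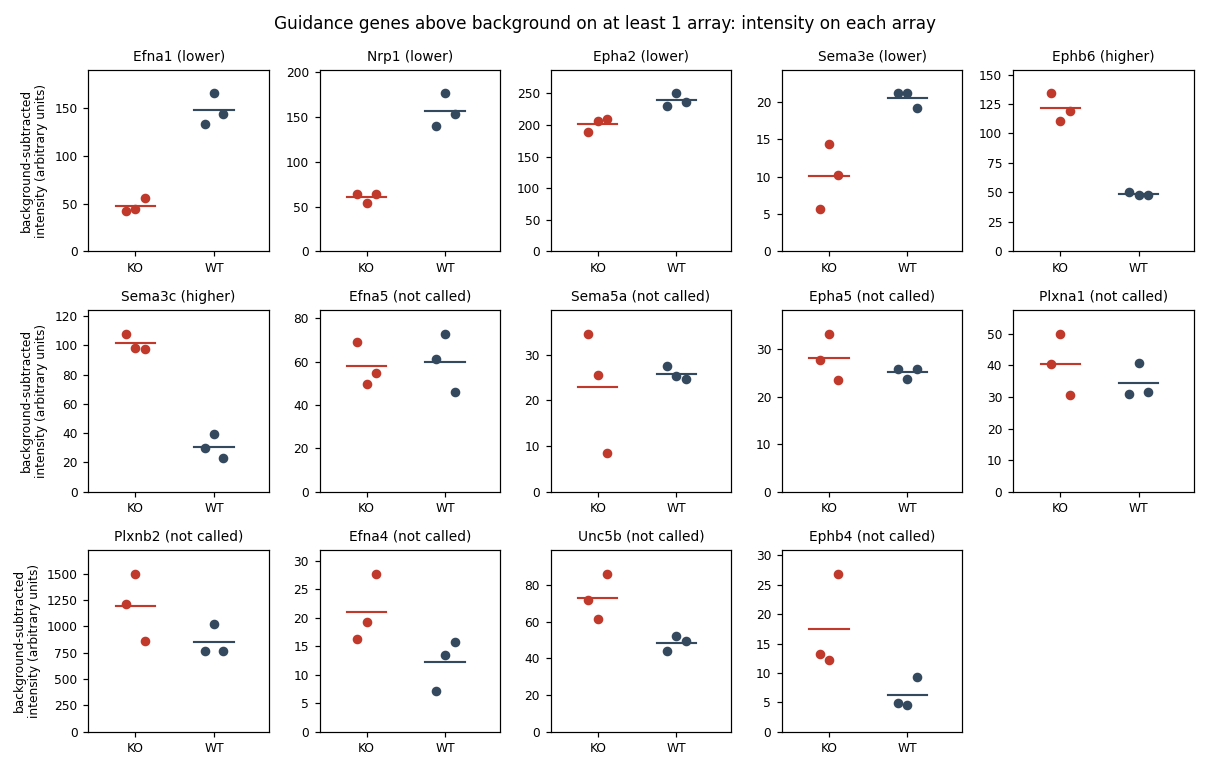
Background-subtracted intensity (vertical axes, arbitrary units, each starting at 0) of the 14 guidance genes above background on at least 1 array; points are cultures (KO left, WT right) and bars are group means. Efna1, Nrp1, Epha2 and Sema3e lie lower in all 3 KO cultures and Ephb6 and Sema3c higher. Ephb4, Efna4 and Unc5b also lie higher in all 3 KO cultures on this scale, which is not normalized, but were not called. Efna1 lies at 42.0 to 56.0 units in KO against 133 to 165 in WT.

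In the semaphorin system, Sema3c encodes a secreted cue that signals through neuropilin and plexin receptors. Its intensities were 108, 98.4 and 97.5 units in KO and 29.5, 39.3 and 22.7 units in WT. The lowest KO culture was above the highest WT culture. Normalized log2 signals were 7.19 ± 0.06 in KO and 6.45 ± 0.13 in WT, which is 1.67-fold higher in KO (log2 difference 0.74, 95% interval 0.56 to 0.92, limma adjusted p = 3.3e-04). With offset 0 the difference was 1.36 (adjusted p = 0.0063).

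Nrp1, which encodes a co-receptor of secreted semaphorins that also binds the growth factor VEGF-A, had 64.0, 53.6 and 63.6 units in KO and 140, 176 and 153 units in WT. All 3 KO cultures were below all 3 WT cultures. Normalized log2 signals were 6.77 ± 0.11 in KO and 7.84 ± 0.08 in WT, which is 2.10-fold lower in KO (log2 difference -1.07, SE 0.08, limma adjusted p = 4.1e-05; -1.60 with offset 0). Sema3c and the co-receptor gene Nrp1 therefore differed in opposite directions, while Sema3e, also a secreted semaphorin gene, was called lower in KO like Nrp1. The endothelial markers Pecam1, Cdh5, Kdr, Tek and Tie1 summed to 3.39 to 23.9 units in KO and 12.3 to 20.2 units in WT, and none of these 5 was above background on any array.

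Sema3e, whose product in mice binds plexin-D1 without needing a neuropilin, had 5.64, 14.4 and 10.2 units in KO and 21.1, 21.1 and 19.1 units in WT. It was near background in all 3 KO cultures and above it in all 3 WT cultures, so the fold is a bound, at least 1.08-fold lower in KO. That bound sets the WT mean log2 signal against a KO mean. In that KO mean each array takes the gene's own signal or the lowest signal marked above background, whichever is higher. The bound leaves out the spread between cultures. The measured log2 means were 5.99 in KO and 6.27 in WT (difference -0.27, limma adjusted p = 0.017), and with offset 0 the difference was -1.03 (adjusted p = 0.038). The call was lost without KO replicate 1 (adjusted p = 0.061) and without WT replicate 1, 2 or 3 (0.068, 0.060 and 0.060).

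The plexins that were measured did not pass. Plxnb2, a receptor for membrane-bound semaphorins, had 1208, 1500 and 860 units in KO and 768, 1023 and 762 units in WT. These overlapped, with a log2 difference of 0.12 (95% interval -0.18 to 0.42). Plxna1, which pairs with Nrp1 to read secreted semaphorins, had 40.5, 50.1 and 30.5 units in KO and 31.0, 40.8 and 31.5 units in WT (95% interval -0.19 to 0.15), and the sign of its difference changed with the processing.

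Among membrane-bound semaphorins only Sema5a was above background on any array. It had 34.6, 25.5 and 8.51 units in KO and 27.5, 25.2 and 24.7 units in WT. The low value was that of KO replicate 3, which also had the lowest share of detected probes (95% interval of the log2 difference -0.42 to 0.09). Sema4a, Sema4d, Sema4f, Sema6a, Sema6b and Sema7a were near background, as were the secreted Sema3a, Sema3b and Sema3f.

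In the netrin system, Unc5b, a repulsive netrin receptor, had 72.0, 61.4 and 86.2 units in KO and 44.0, 52.3 and 49.4 units in WT. The deposited intensities did not overlap, but after normalization the log2 signals did (6.91 ± 0.19 in KO and 6.76 ± 0.05 in WT), and the difference of 0.15 did not pass (95% interval -0.08 to 0.37, limma adjusted p = 0.39). The ligand gene Ntn1 and the receptor gene Dcc were near background on every array. Intensities of the 17 genes near background ranged from -2.25 to 17.0 units.

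**Figure D3:**
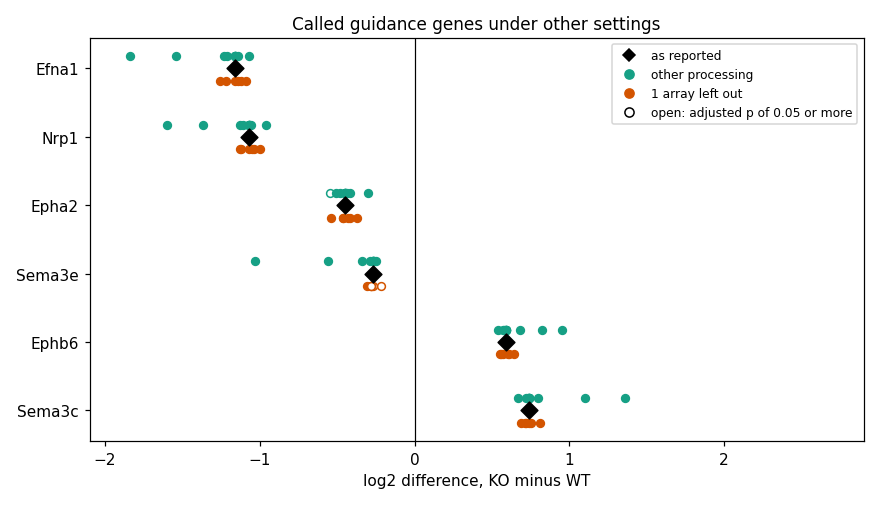
Log2 difference, KO minus WT (horizontal axis), of the 6 called guidance genes as reported (diamonds), under other processing (upper points) and with 1 array left out (lower points); open points have a limma adjusted p of 0.05 or more. No point crosses 0, and Sema3e and Epha2 have the open points.

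To show the regulatory sequence of the 6 called genes, the 250 bases before their starts were taken from RefSeq (mouse build GRCm38.p6), which held promoter windows for 25 of the 31 measured genes. No binding or methylation was measured here. Capitals mark matches, on either strand, to AP-1 (TGANTCA), the cAMP response element, CRE (TGACGTCA), or the GC box (GGGCGG); AP-1 and CRE factors include substrates of stress-activated kinases and of kinases below them, and none of these 3 motifs contains another. The Efna1 gene had 2 starts, and which of them the probe's transcript uses is not given. Each line is read 5′ to 3′ along the gene.
Efna1, first start (chr3:89280952-89281201, minus strand): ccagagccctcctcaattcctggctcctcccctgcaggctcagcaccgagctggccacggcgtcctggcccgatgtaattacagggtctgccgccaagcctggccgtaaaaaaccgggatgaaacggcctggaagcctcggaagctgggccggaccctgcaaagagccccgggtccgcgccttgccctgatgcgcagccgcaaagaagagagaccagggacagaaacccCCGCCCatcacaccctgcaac
Efna1, second start (chr3:89279646-89279895, minus strand): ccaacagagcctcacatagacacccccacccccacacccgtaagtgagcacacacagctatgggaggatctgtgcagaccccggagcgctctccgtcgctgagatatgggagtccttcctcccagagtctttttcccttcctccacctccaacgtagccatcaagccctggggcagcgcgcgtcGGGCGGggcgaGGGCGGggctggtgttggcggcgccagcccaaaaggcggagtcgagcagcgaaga
Nrp1 (chr8:128358823-128359072, plus strand): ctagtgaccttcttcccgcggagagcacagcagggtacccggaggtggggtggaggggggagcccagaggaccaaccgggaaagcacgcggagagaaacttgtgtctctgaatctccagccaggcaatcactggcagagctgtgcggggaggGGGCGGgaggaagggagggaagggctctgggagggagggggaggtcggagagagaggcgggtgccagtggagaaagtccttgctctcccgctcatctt
Epha2 (chr4:141300971-141301220, plus strand): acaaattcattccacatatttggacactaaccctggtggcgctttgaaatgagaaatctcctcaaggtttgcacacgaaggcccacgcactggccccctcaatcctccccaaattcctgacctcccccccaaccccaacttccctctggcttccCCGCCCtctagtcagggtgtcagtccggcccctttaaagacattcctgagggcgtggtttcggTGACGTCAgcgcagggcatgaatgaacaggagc
Sema3e (chr5:14025026-14025275, plus strand): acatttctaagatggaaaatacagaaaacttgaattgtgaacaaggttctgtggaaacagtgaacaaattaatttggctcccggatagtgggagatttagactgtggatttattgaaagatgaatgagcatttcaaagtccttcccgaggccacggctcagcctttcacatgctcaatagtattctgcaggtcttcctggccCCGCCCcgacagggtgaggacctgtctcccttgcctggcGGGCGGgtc
Ephb6 (chr6:41605261-41605510, plus strand): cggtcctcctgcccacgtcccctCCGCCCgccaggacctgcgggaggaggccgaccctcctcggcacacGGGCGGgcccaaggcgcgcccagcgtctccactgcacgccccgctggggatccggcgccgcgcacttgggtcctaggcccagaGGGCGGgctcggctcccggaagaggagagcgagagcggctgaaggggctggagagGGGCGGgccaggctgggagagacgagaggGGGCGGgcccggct
Sema3c (chr5:17574566-17574815, plus strand): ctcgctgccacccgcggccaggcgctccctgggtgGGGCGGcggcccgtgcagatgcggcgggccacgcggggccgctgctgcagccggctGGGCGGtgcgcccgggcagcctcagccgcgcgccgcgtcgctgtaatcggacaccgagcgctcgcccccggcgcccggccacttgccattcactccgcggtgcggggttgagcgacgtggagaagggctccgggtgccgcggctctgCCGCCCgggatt

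In these windows the GC box appeared 1 and 2 times before the starts of Efna1, 1 time in Nrp1 and Epha2, 2 times in Sema3e, 5 times in Ephb6 and 3 times in Sema3c. Of all 32851 promoter windows of the same length, which include those of non-coding genes, 32.7% held a GC box, against 26 of the 33 windows of the measured guidance genes, called or not. The CRE letters appeared in Epha2 alone among the 6 genes, ending 26 bases before its start, and were in 1.55% of all windows. AP-1 letters were in none of them and in 6.75% of all windows. GC content was 76.8% for Ephb6 and 78.4% for Sema3c, the genes higher in KO, and 48.0% to 64.8% for the windows of the genes lower in KO. It was not computed for the genes not called or for all windows, and a relation to direction was not tested. A match describes letters only.

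Other genes of the same pathways were counted from lists chosen by family and role. Of 36 further guidance ligands and receptors 19 were measured, and 13 of these were near background on every array. Epha6, an A-class receptor, was the only one of the 19 called (5.26%, beside 22.6% of all probes). Its log2 signals were 6.67, 6.42 and 6.57 in KO and 6.91, 7.02 and 6.93 in WT, with a difference of -0.40 (SE 0.08, limma adjusted p = 0.0067).

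Of 53 signal transducers that act below guidance receptors 41 were measured, and 7 were higher and 3 lower in KO (24.4% in all, beside 22.6% of all probes). Ngef, the exchange factor ephexin that acts below EphA receptors, had the largest log2 difference of the list as reported, but not with offset 0. It had 3919, 4649 and 2482 units in KO and 1110, 1122 and 1067 units in WT. Every KO culture was above every WT culture. The log2 difference was 1.38 (SE 0.14, limma adjusted p = 3.3e-04), or 1.41 with offset 0, where that of Mical1 was larger. Mical1, an oxidoreductase that disassembles actin below plexins, had 111, 98.1 and 80.7 units in KO and 24.3, 25.8 and 19.9 units in WT, above background on 2 of the WT arrays (log2 difference 0.81, limma adjusted p = 4.8e-05; 1.60 with offset 0). Limk2, the kinase that phosphorylates cofilin, was 1.57-fold higher, and the plexin-associated exchange factor Farp2 was 1.29-fold higher. The adaptor gene Nck2, near background in all 3 WT cultures, was 1.36-fold higher (95% interval of its log2 difference 0.33 to 0.57). Its WT signals were no lower than the lowest signal marked above background on each array. Its fold is thus as measured and not a bound. The kinase gene Gsk3b was 1.23-fold higher. With offset 0 the log2 differences were 0.82 for Limk2, 0.76 for Farp2, 1.07 for Nck2 and 0.36 for Gsk3b. The call of Gsk3b was lost there. The 6 genes named in this paragraph have the smallest adjusted p of the list.

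The remaining calls are named after their values were seen. Rock2, a kinase that promotes actomyosin contraction, was 1.48-fold higher in KO (limma adjusted p = 0.019), but lost its call without KO replicate 2 (0.058), without WT replicate 1, 2 or 3 (0.059, 0.082 and 0.066) and with offset 0 (0.057). Called lower in KO were Acp1, a phosphatase that acts on Eph receptors (log2 difference -0.32), and the phosphatase gene Ptpn11. Ptpn11 was above background on 2 WT arrays and on 0 KO arrays, and its fold, set as for Sema3e, was 1.26. The 95% interval of its measured log2 difference was -0.62 to -0.13, so a smaller fold is not excluded. The exchange factor gene Tiam1 also passed (limma adjusted p = 0.011), but it was near background on all 6 arrays and no fold is given. All 3 lost their calls with offset 0. The deposited intensities of Acp1 overlapped, at 480, 426 and 364 units in KO and 478, 460 and 371 units in WT, and only the normalized values were separate. Acp1 lost its call also with the spot median, under median scaling, with the authors' table and without KO replicate 2 or WT replicate 1 or 2, and Ptpn11 without background correction and without KO replicate 1 or 2 or WT replicate 1 or 3.

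**Figure D4:**
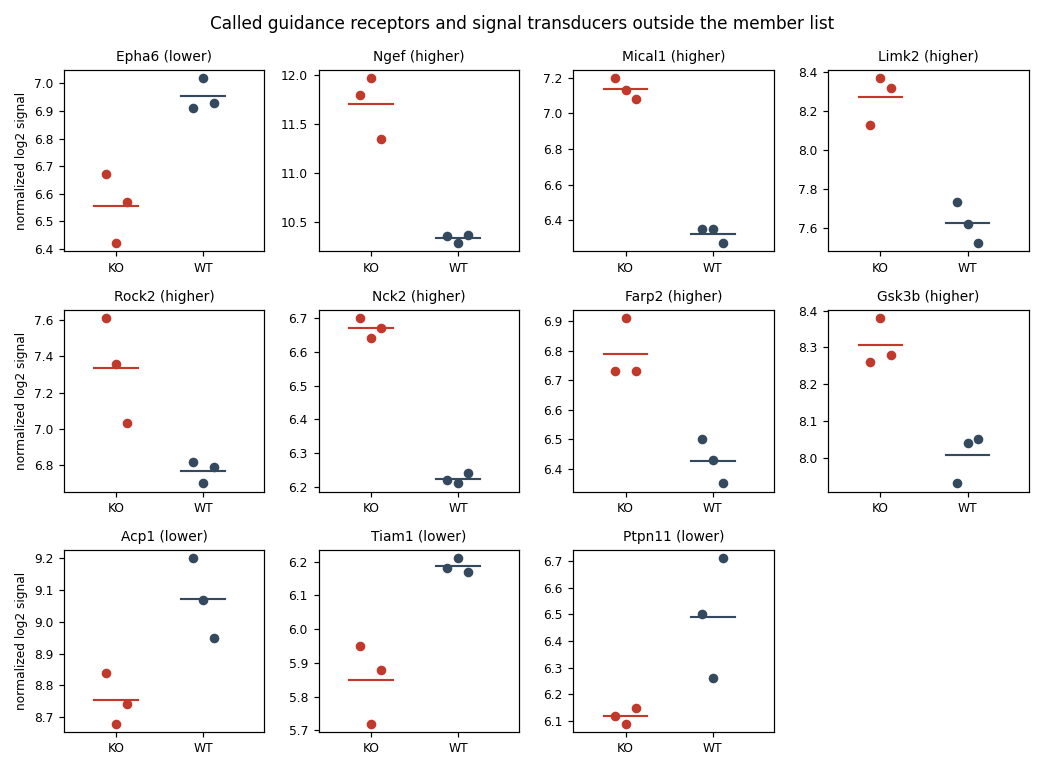
Normalized log2 signal (vertical axes, which do not start at 0) of the 11 called genes of the added pathway lists; points are cultures (KO left, WT right) and bars are group means. Ngef lies at 11.35 to 11.97 in KO against 10.28 to 10.36 in WT, and Epha6 lies lower in all 3 KO cultures.

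Of 5 measured neuron markers, Nefm (fitted without WT replicate 2, whose spot was left out for its scanner mark) and Stmn2 were called higher in KO, and Tubb3, Snap25 and Map2 were not called. The summed intensity of the 5 was 236 to 301 units in KO and 29.6 to 35.9 units in WT. In WT none of Map2, Tubb3, Nefm and Stmn2 was above background on any array. In KO Nefm and Stmn2 were above background on all 3 arrays, Tubb3 on 2 and Map2 on 0. Of 5 epithelial markers Krt18 alone was called higher in KO, while Cdh1, Epcam, Krt8 and Cldn4 were near background on all 6 arrays; the summed intensity of the 5 was 107 to 156 units in KO and 14.5 to 24.3 units in WT. Of 2 muscle markers Cnn1 was called higher in KO, and the 2 summed to 181 to 218 units in KO and 9.62 to 13.0 units in WT. The part of these markers' levels in the guidance gene results was not tested.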

How the data were processed

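Per the file headers and values, the deposited scanner files give spot and local background intensities. The deposited expression value equals each spot's mean intensity less its median local background, and the authors' normalized intensity divides it by 1 constant per array. The submitters' processing notes name limma, with no version. The authors' value table holds the same values, with the columns of KO replicates 2 and 3 exchanged in all matched rows (100%). It is linear, with column medians of 0.961 to 0.974, and no centring was stated.

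Here background was corrected with normexp (offset 50, limma 3.58.1, R 4.3.3). Masked, contaminated and irregular spots were left out, control spots were dropped, and log2 values of 19801 gene probes were quantile normalized. KO and WT were compared with lmFit and eBayes over 19604 probes, two-sided, with Benjamini-Hochberg adjustment and a threshold of 0.05. The test was tried on simulated data with the same spread for every probe. The arrays differ in this, so no conclusion is drawn from that trial. Above background means not marked low by the scanner software. RefSeq accessions (GRCm38.p6 table) named 10712 probes and synonyms 101, and 8988 stayed unnamed. The 15 guidance genes without a match may thus still have a probe on the array. Members, lists and naming rule were chosen with earlier results of these data known. The rule names every member, Mapk14 and up to 6 called genes of each added list with the smallest adjusted p. Files carry no usable batch label.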

Additional observations from a re-analysis of the deposited data

How the results depend on the processing

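Over 17 other settings, the directions of the 6 called guidance genes and of Mapk14 stayed as reported, and Nrp1, Efna1, Sema3c, Ephb6 and Mapk14 kept their calls in all 17. Epha2 lost its call with offset 0 and Sema3e when single arrays were left out. Guidance genes called numbered 5 to 6 with 1 array left out and 5 to 6 otherwise, 2 of them higher in each setting and 3 to 4 lower. Each measured guidance gene had 1 probe, so averaging a gene's probes left its value as it was. All probes called numbered 3191 to 5826 with 1 array left out and 2717 with offset 0, against 4421. The median log2 difference over guidance genes was -0.05 under median scaling and -0.06 with the authors' table (log2 of the value plus 1). With 1 array left out it was -0.02 to 0. It was -0.10 over the 12 genes above background on all arrays of a group. Epha5, Sema3e and Sema5a entered those 12 through WT alone, each with a negative difference, and no gene entered through KO alone. That filter by itself thus favoured genes lower in KO. Over the 14 genes above background on at least 1 array the median was -0.03. Of the 19 measured genes in the added list of guidance ligands and receptors, 1 was higher without background correction, against 0. Transducers lower in KO numbered 0 with offset 0, 1 over probes above background on all arrays of a group, 5 with array weights, 5 with the replicate block and 1 to 5 with 1 array left out, against 3; the cause was not tested. Those lower numbered 1 without KO replicate 2 or WT replicate 1 and 5 without KO replicate 3. Farp2 lost its call with the spot median (adjusted p = 0.054), and Gsk3b with offset 0 (0.13) and with the authors' table (0.055).

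Replicate numbers are shared by the groups, but no label says that they pair cultures. Deviations of same-numbered arrays, numbered by sample title, correlated at 0.24, -0.12 and 0.10. Those of differently numbered arrays correlated at -0.28 to 0.20. By the names inside the files, KO replicate 3 would pair with WT replicate 2 (0.20) and KO replicate 2 with WT replicate 3 (-0.09). With the number as a block (the replicate block) 4334 probes were called, 6 guidance genes among them, with 2 higher and 4 lower. Signals near background on every array limit 17 of the 31 genes. A further 5 were above background on some arrays only, among them the called gene Sema3e.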
